A study of Mus musculus with 6 samples.

Results

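Chromatin accessibility was followed around 7 genes that encode angiogenic and secreted factors of the hypoxic response, Vegfa, Adm, Angptl4, Edn1, Pdgfb, Lox and Igfbp3. All peaks in the gene bodies or within 50 kb of them were taken (GENCODE M21, mm10), and a peak within 2000 bp of a start site was counted as a promoter peak. Merged over all libraries, 44 of 52358 peak regions lay in these windows. They held 39 of the 41308 consensus peaks, which are stretches over 200 bp shared by both libraries of a condition, and 22 of the 39 were present in all 6 libraries and could be tested, while 17 were missing from at least 1. Of the 44 regions, 4 lay at promoters of the genes, 9 at promoters of neighbours and 31 were distal. Measured were GL261 cells, a mouse glioma line carrying pEGFP-N1 as a stable transgene, by ATACseq, in which the Tn5 transposase cuts open DNA. The 3 conditions, with 2 libraries each, were 21% O2, 1% O2 and <0.1% O2, and the labels give 16 h for both hypoxic levels. The cells came from 1 line grown alone in culture and were fixed with formaldehyde before they left the chamber. Nothing states that the libraries of a condition came from separate cultures, so the p-values measure the spread between these libraries only.

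Cells at low oxygen stabilise the HIF transcription factors, which bind a short core motif in promoters and enhancers. Among their best-known targets are secreted proteins that call in and remodel blood vessels, which makes this group a signature of hypoxic regions in glioma. Vegfa and Pdgfb are growth factors for endothelial and mural cells, Adm and Edn1 are vasoactive peptides, Angptl4 is a secreted regulator of lipoprotein lipase and of vessels, Lox crosslinks collagen and elastin, and Igfbp3 binds insulin-like growth factors in the extracellular space. Open chromatin near such a gene marks DNA that may regulate it or another gene. It is not a measure of the transcript, which was not analysed here. Peaks were assigned to the genes by distance alone, and a link to the named gene was not tested.

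The lists held 33006 to 43554 peaks, and the height used below is the summit pileup, the whole number of fragments over the highest point of a peak. It was recovered from the fold and p-value of each peak. Hypoxic libraries were deeper, with a genome coverage of 2.93 to 3.35 against 2.16 and 2.36 at 21% O2, so raw pileups are given first and are then divided by the median pileup of the library over the 28432 tested peaks (61 and 80 at 21% O2, 108 and 98 at 1% O2, 99 and 82 at <0.1% O2). This ratio is called the relative height. The lowest pileup of any listed peak was 11 at 21% O2 and 13 in hypoxia, so an absent peak is one under the threshold of the caller and not closed DNA. The lowest pileup among the tested peaks of these genes was 14, with an exact Poisson 95% interval of 7.65 to 23.5, and the highest was 431, with an interval of 391 to 474, which cover counting error only. A promoter peak in all 6 libraries was found for 8 of 10 glial markers, though not for Sox9, and for 0 of 7 endothelial, 1 of 6 leukocyte and 2 of 5 fibroblast and mural markers. The endothelial marker Pecam1 had a promoter peak in 5 libraries, with a pileup of 22 in 1 of the normoxic libraries, 90 and 73 at 1% O2, then 81 and 65 at <0.1% O2. Of the tested promoter peaks of these lists at <0.1% O2 against 21% O2, 1 glial was higher and 5 lower of 8, the leukocyte one was not called, and of the fibroblast and mural ones Col1a1 was higher (0.57, adjusted p = 0.00116) and Pdgfrb not called. Their part in the results was not tested.

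The DNA under 6 peaks that the results turn on is shown, as 300 bases centred on the mean summit and read from GRCm38.p6 of RefSeq. The distance of a summit from the nearest start site of the gene is given in kb, negative upstream and positive downstream. They are 4 of the distal peaks of Vegfa, Adm and Edn1 that rose or appeared in hypoxia, the peak nearest to the start site of Angptl4, and the intronic peak of Pdgfb that fell. Capitals mark the HIF core, ACGTG or GCGTG on either strand, and the AP-1 motif, TGANTCA, with overlapping matches counted each.

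Vegfa -41.7 kb (chr17:46073958-46074257, plus strand): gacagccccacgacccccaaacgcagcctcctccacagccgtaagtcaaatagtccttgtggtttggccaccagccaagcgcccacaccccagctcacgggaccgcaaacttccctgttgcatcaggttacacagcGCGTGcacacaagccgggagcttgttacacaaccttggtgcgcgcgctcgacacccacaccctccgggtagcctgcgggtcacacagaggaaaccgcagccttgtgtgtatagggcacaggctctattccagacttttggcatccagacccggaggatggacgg
Vegfa +27.0 kb (chr17:46004213-46004512, plus strand): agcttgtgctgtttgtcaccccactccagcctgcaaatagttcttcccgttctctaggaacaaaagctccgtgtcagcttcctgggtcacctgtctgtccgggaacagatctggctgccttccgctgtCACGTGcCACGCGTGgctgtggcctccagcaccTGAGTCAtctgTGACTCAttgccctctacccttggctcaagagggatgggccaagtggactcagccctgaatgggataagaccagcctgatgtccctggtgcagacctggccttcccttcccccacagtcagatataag
Adm +2.8 kb (chr7:110630357-110630656, plus strand): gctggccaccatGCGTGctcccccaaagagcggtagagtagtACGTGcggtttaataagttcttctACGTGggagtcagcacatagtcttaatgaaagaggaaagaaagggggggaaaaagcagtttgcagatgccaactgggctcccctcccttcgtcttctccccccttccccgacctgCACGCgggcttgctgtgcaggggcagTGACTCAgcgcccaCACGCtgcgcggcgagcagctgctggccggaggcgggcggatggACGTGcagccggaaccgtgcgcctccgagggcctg
Angptl4 -1.8 kb (chr17:33783489-33783788, plus strand): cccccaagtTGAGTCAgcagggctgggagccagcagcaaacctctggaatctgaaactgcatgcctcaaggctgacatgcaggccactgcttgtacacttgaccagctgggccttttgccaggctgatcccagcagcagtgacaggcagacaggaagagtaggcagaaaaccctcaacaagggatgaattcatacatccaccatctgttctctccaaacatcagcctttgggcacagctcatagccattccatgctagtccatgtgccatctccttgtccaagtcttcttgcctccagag
Edn1 +27.3 kb (chr13:42328623-42328922, plus strand): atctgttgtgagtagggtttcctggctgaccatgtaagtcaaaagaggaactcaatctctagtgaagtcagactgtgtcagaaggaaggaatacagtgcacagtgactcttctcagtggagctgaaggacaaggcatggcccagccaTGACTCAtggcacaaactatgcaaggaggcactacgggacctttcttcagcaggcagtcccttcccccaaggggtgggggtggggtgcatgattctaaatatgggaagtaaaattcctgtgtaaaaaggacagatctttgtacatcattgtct
Pdgfb +10.7 kb (chr15:80003916-80004215, plus strand): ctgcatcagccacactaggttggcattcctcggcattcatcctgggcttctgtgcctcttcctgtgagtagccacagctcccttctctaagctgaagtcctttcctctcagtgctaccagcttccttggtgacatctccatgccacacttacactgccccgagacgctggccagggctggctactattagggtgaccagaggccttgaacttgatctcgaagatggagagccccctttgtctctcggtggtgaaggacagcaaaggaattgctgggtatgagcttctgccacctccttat

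The Adm window held 6 HIF cores and 1 AP-1 motif, and the Vegfa window at +27.0 kb held 4 cores, which overlap each other in 2 runs, and 2 AP-1 motifs. The Vegfa window at -41.7 kb held 1 core and no AP-1 motif. Angptl4 and Edn1 had no core and 1 AP-1 motif each, and the Pdgfb window had neither. The other peaks called lower at <0.1% O2 in the tests below, with windows not shown, all held cores. There were 3 at Vegfa +0.3 kb, 2 at Adm -13.3 kb and 3 at Angptl4 -42.8 kb. Of the tested peaks, 3 of 9 called higher at <0.1% O2 against 21% O2 (33.3%) held a HIF core, as did 4 of 13 not called higher (30.8%). Other sites of Vegfa and Adm that rose or appeared, with windows not shown, had fewer HIF cores than the Adm window at +2.8 kb, with 0 at Adm +10.8 kb, Adm +17.9 kb and Vegfa -31.2 kb and 1 each at Adm +23.6 kb and Vegfa -48.9 kb. Over all members, 11 of 28 distal windows (39.3%) and 4 of 11 promoter windows (36.4%) held a HIF core, beside 31.8% of all distal and 60.2% of all promoter consensus peaks. These promoter windows lie at start sites of the genes and of neighbours together. At promoters of the genes themselves, Vegfa +0.3 kb held 3 cores, Pdgfb -0.1 kb held 1, and Vegfa -0.030 kb and Angptl4 -1.8 kb held 0. The AP-1 motif was in 15 of 28 distal (53.6%) and 3 of 11 promoter windows (27.3%), beside 34.5% and 10.7% of all such peaks. A match is a run of letters and was not tested for binding.

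Open sites near the 7 genes were more often listed in hypoxia, as were peak regions in general. Of the 44 regions, 26 and 29 held a peak in the 21% O2 libraries, 39 and 38 at 1% O2, then 35 and 34 at <0.1% O2. In percent of the 44 these are 59.1 and 65.9, 88.6 and 86.4, and 79.5 and 77.3, where the libraries in the same order held 62.4 and 68.4, 80.6 and 78.5, and 82.3 and 74.2 percent of all merged regions. At 1% O2, 9 regions were gained, with a peak in both hypoxic libraries and in neither normoxic one, and at <0.1% O2 6 were gained. These were read beside 8.48% and 8.02% of all merged regions. None of the 44 was lost in the same sense at either level, where 0.837% and 1.19% of all regions were. Without the first 21% O2 library 3 regions counted as lost at <0.1% O2, and 1 did without the first <0.1% O2 library, while 1 counted as lost at 1% O2 without the second 1% O2 library. Vegfa and Pdgfb, which hold 9 and 14 of the 44 regions, had 3 and 4 of the 9 gains at 1% O2 and 2 and 1 of the 6 at <0.1% O2, and 4 regions were gained at both levels. The gains moved with list length. When the top 33006 peaks were taken in every library, 0 regions were gained and 1 lost at 1% O2, and 3 were gained and 2 lost at <0.1% O2. Those 3 were Vegfa +27.0 kb, Adm +23.6 kb and Angptl4 -7.0 kb. The percentages of all merged regions gained or lost, above, belong to the full lists and are not given for lists of equal length.

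**Figure D1:**
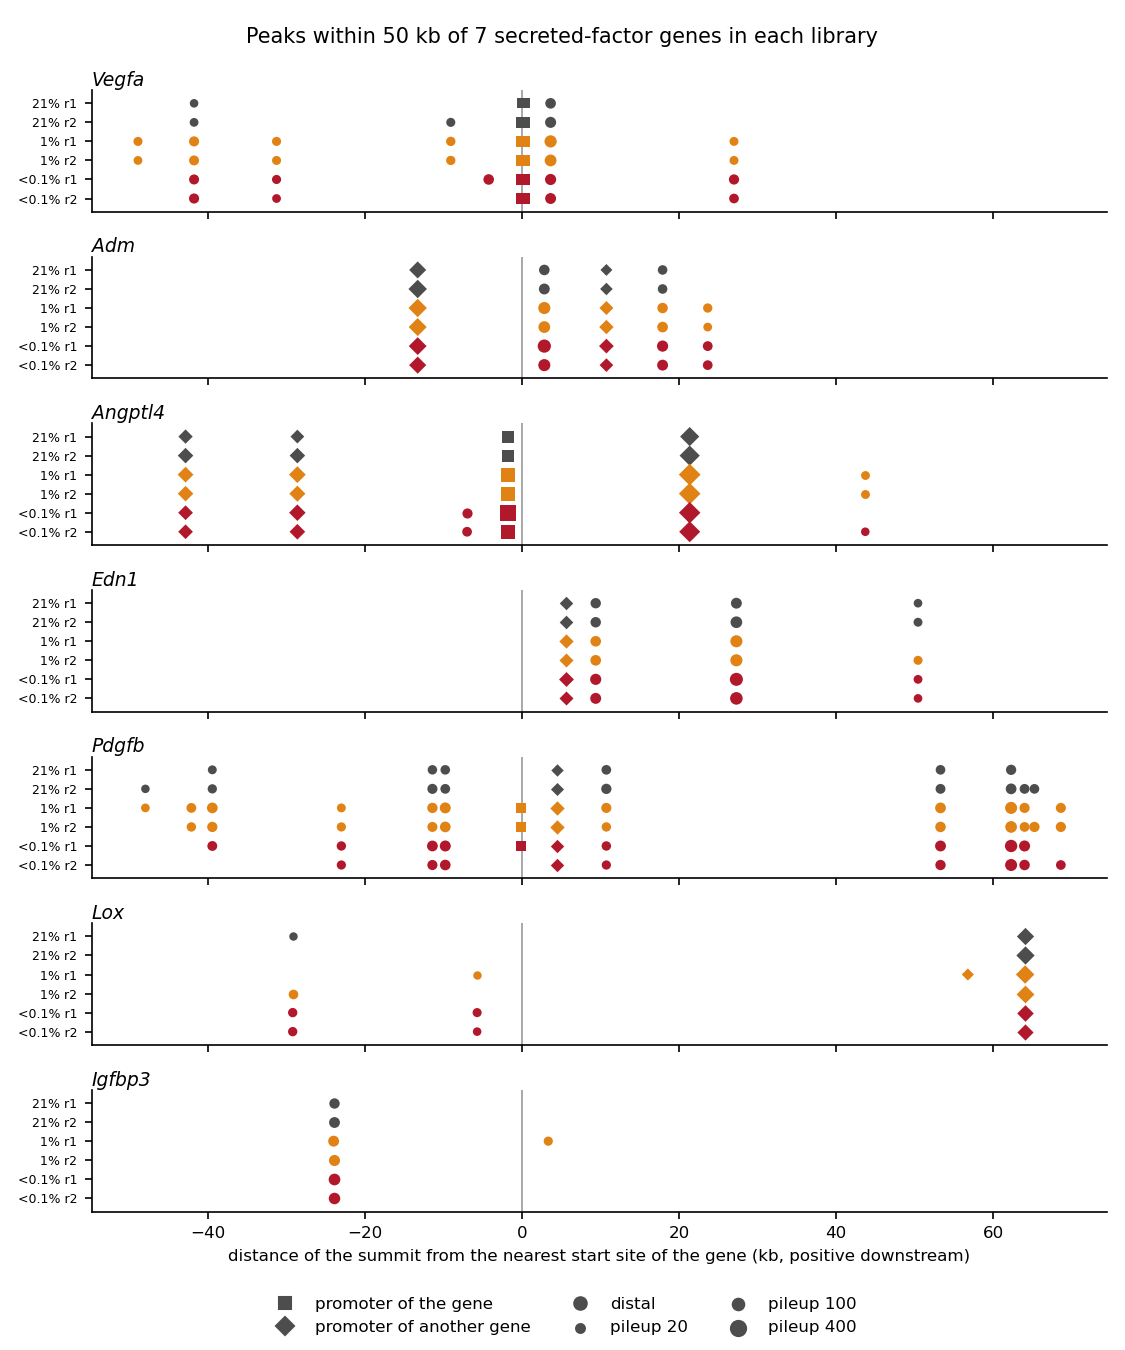
Peaks of each library around the 7 genes, by the distance of the summit from the nearest start site of the gene (kb, x axis), with 1 line per library (r1 and r2 are the replicates) and symbol area growing with summit pileup. Squares are promoter peaks of the gene, diamonds promoter peaks of other genes and circles distal peaks, and 14 of the 44 regions have no symbol at 21% O2.

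In heights, the distal peaks gave more rises than falls under severe hypoxia, as did distal peaks in general. At <0.1% O2 against 21% O2, limma called 6 of 12 distal peaks higher and 1 lower, where 32% of all distal peaks tested were higher and 11.9% lower. Of the 10 promoter peaks, 3 were higher and 3 lower, beside 13.9% and 38.5% of all promoter peaks tested. At 1% O2 the calls were 2 higher and 1 lower of the 12 distal peaks (19.5% and 19% of all) and 2 higher and 1 lower of the 10 promoter peaks (13% and 22.1% of all). The median log2 change of the distal peaks was 0.22 at 1% O2 and 0.47 at <0.1% O2, beside 0.00 and 0.17 over all distal peaks. Between the hypoxic levels, 6 of 12 distal peaks were higher and 1 lower at <0.1% O2 (21.5% and 2.95% of all), as were 1 and 0 of 10 promoter peaks (5.04% and 18.9% of all). Only 3 of the 10 promoter peaks belonged to the genes themselves, to Vegfa and Angptl4, and the other 7 lay at start sites of neighbours.

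These calls rest on the scale of the height. With fold enrichment over the local background tested in place of the pileup, 0 of the 22 peaks were called in any of the 3 comparisons, where limma still called 1836 (1% O2 against 21% O2), 3748 (<0.1% O2 against 21% O2) and 162 (<0.1% O2 against 1% O2) of all peaks. At an unadjusted p under 0.05, 6, 9 and 4 of the 22 passed by fold in these comparisons. The local background of the caller is taken around the peak and rose with several of the peaks, as given below. These backgrounds are fragments not scaled for depth. Genome coverage itself was 2.16 and 2.36 at 21% O2 against 3.35 and 3.18 at <0.1% O2. With pileups scaled to genome coverage, the median of all tested peaks moved to 0.13 at 1% O2 and -0.16 at <0.1% O2 on the log2 scale. The share of all peaks called in each direction is not given for this scaling, so the counts that follow are not read as particular to these genes. Of the 22 peaks, 4 were then higher and 0 lower at 1% O2 (4 and 2 before) and 6 higher and 4 lower at <0.1% O2 (9 and 4 before), the calls lost at <0.1% O2 being those of Edn1 +27.3 kb, Pdgfb -9.8 kb and Angptl4 -28.6 kb. Between the hypoxic levels 0 were higher and 3 lower (7 and 1 before), and 1 was higher at an unadjusted p under 0.05. Of those 7 peaks higher at <0.1% O2 than at 1% O2 under the median scaling, Angptl4 -1.8 kb and Edn1 +27.3 kb kept the call with each library left out in turn, and the others lost it without at least 1 of the hypoxic libraries.

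**Figure D2:**
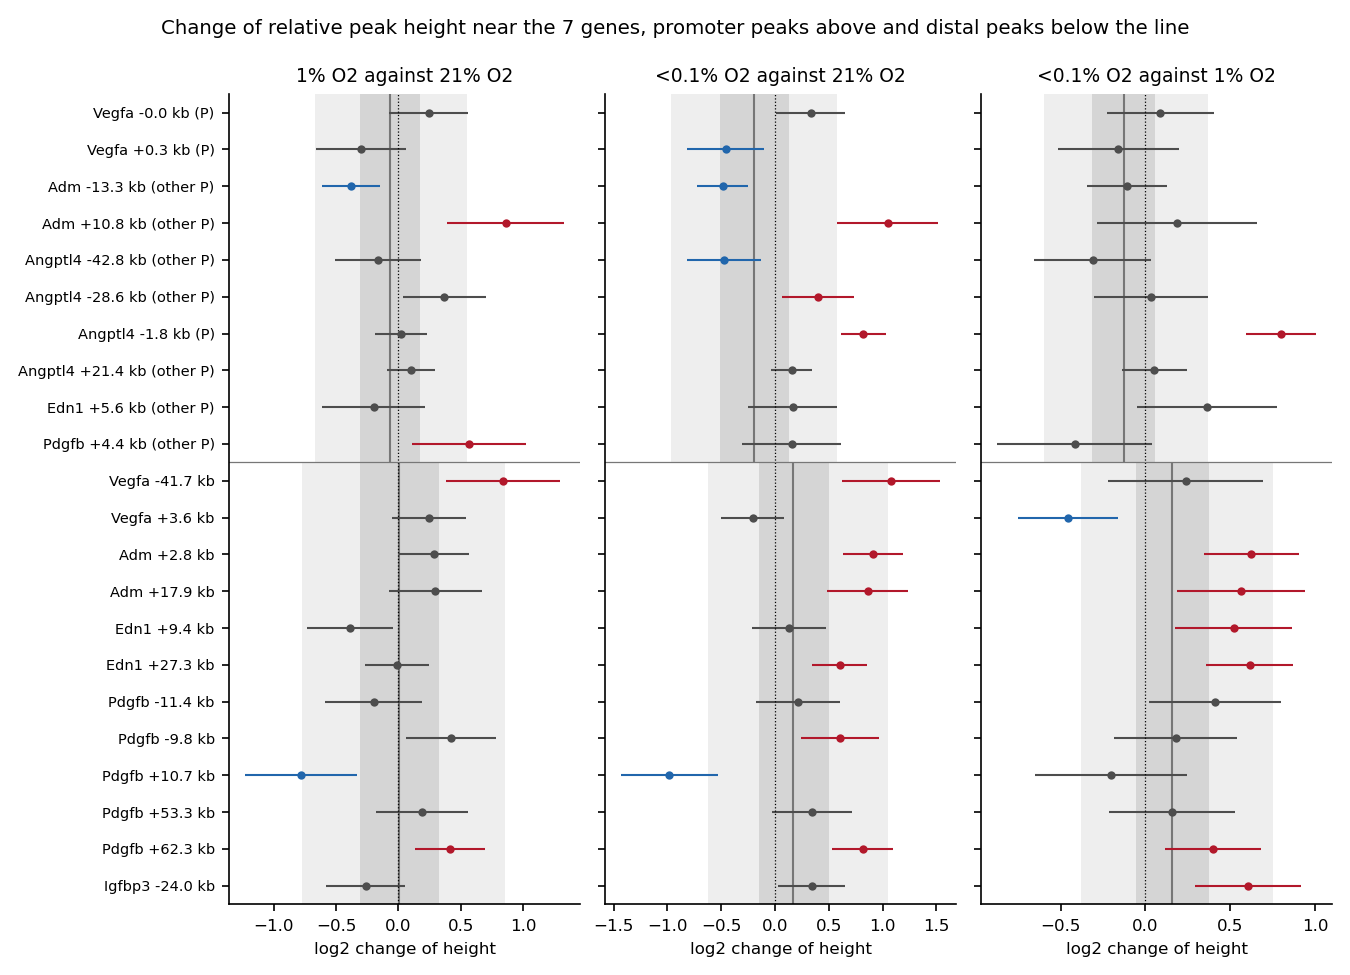
Log2 change of relative height (x axis) of the 22 tested peaks in the 3 comparisons, with 95% intervals from the limma fit, red where called higher and blue where called lower. Grey bands give the central 50% and 90% of all tested promoter peaks (above the line) or distal peaks (below it), with their median, (P) marks a promoter peak of the gene and (other P) one of another gene, and the Vegfa -41.7 kb, Pdgfb +62.3 kb and Adm +2.8, +10.8 and +17.9 kb peaks, with Angptl4 -1.8 kb, reach 0.81 to 1.08 at <0.1% O2.

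Vegfa, the main growth factor for endothelial cells, lies at chr17:46016993-46032369 on the minus strand and had 9 peak regions. Its strongest promoter peak by mean pileup over the 6 libraries, at -0.030 kb, had pileups of 47 and 62 at 21% O2, 104 and 85 at 1% O2, then 97 and 79 at <0.1% O2. Every hypoxic library stood above both normoxic ones, also in relative height, which went from 0.773 ± 0.00319 to 0.915 ± 0.0676 and 0.972 ± 0.0116 (SD, n = 2). The change did not pass the test, with a log2 change of 0.24 (SE 0.16, adjusted p = 0.233) at 1% O2 and 0.33 (SE 0.16, adjusted p = 0.0790) at <0.1% O2. A neighbouring promoter peak at +0.3 kb, in an intron, had pileups of 53 and 61, 68 and 68, and 58 and 49. In relative height it was lower at <0.1% O2 by a log2 change of -0.46 (SE 0.18, adjusted p = 0.0296), while the value was 0.024 with the GC trend removed. The call was also lost without the first 21% O2 library (-0.40) and without the first or second <0.1% O2 library (-0.45 and -0.48). Its sequence had a GC content of 71.7%, the highest of the 39 peaks.

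Both Vegfa promoter peaks were low in fold enrichment, with ranks between 0.890 and 11.1 of 100 in all 6 libraries. The local background there was 11.0 to 18.4 fragments, several times the genome coverage. An intronic peak at +3.6 kb had pileups of 64 and 82 at 21% O2, 138 and 116 at 1% O2, then 86 and 76 at <0.1% O2. It was highest at 1% O2 and was lower at <0.1% O2 than at 1% O2 by a log2 change of -0.45 (SE 0.15, adjusted p = 0.0189), a call that was lost when any 1 of the 4 hypoxic libraries was left out and with the GC trend removed (-0.29, adjusted p = 0.265).

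The distal site at -41.7 kb was higher at both hypoxic levels. It lies in an intron of AC110562.2, and its pileups were 16 and 19 at 21% O2, 48 and 44 at 1% O2, then 46 and 49 at <0.1% O2. All 4 hypoxic libraries were above both normoxic ones, and the hypoxic levels were close to each other. The log2 change was 0.84 (SE 0.23, adjusted p = 0.00290) at 1% O2 and 1.08 (SE 0.23, adjusted p = 0.000118) at <0.1% O2, a height 2.11 times that at 21% O2. Its normoxic pileups were near the lowest a listed peak can have, and its local background went from 2.68 and 2.40 to 6.09 and 5.40 at <0.1% O2. By fold the log2 change was 0.38 (adjusted p = 0.160) at 1% O2 and 0.39 (adjusted p = 0.118) at <0.1% O2, and the fold rank rose by 13.3 and 14.6 points.

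Further Vegfa regions differed between conditions in whether a peak was listed. The +27.0 kb region downstream of the gene, shown above with its HIF cores, had no peak at 21% O2, pileups of 22 and 22 at 1% O2, then 52 and 37 at <0.1% O2. The -31.2 kb region had none at 21% O2, 24 and 23 at 1% O2, then 25 and 19 at <0.1% O2. A region at -48.9 kb was listed at 1% O2 alone, with 24 and 19. A region at -9.1 kb was listed in 1 normoxic library at 24, in both 1% O2 libraries at 30 and 28, and in neither <0.1% O2 library. One at -4235 bp was in a single library, the first of <0.1% O2, at 63.

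Pdgfb encodes the B chain of platelet-derived growth factor, which draws pericytes to new vessels, and lies at chr15:79995874-80014977 on the minus strand. With 14 regions it had the most of the 7 genes. Its own promoter peak at -0.1 kb was absent at 21% O2, had pileups of 28 and 27 at 1% O2, and was 28 in the first <0.1% O2 library and absent from the second. It was thus gained at 1% O2 and could not be tested.

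The most open distal peak of the window, at +62.3 kb and past the end of the gene in an intron of Cbx7, rose step by step. Its pileups were 53 and 69 at 21% O2, 128 and 110 at 1% O2, then 148 and 127 at <0.1% O2, and the relative heights of the 3 conditions did not overlap (0.866 ± 0.00449, 1.15 ± 0.0444 and 1.52 ± 0.0381, SD, n = 2). The log2 change was 0.41 (SE 0.14, adjusted p = 0.0170) at 1% O2 and 0.81 (SE 0.14, adjusted p = 5.48e-06) at <0.1% O2, and the step between the hypoxic levels was 0.40 (SE 0.14, adjusted p = 0.0314). Without the first 1% O2 library the rise at 1% O2 was 0.39 and no longer called. The step between the hypoxic levels was not called with coverage scaling or without any single hypoxic library. The peak at -9.8 kb had pileups of 34 and 39, 77 and 67, and 78 and 65, and was higher at <0.1% O2 by 0.60 (SE 0.18, adjusted p = 0.00525). At 1% O2 its log2 change was 0.42 (adjusted p = 0.0606).

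One Pdgfb peak fell. It lies in an intron of the gene at +10.7 kb and had pileups of 37 and 53 at 21% O2, 48 and 30 at 1% O2, then 31 and 27 at <0.1% O2. In relative height all 4 hypoxic libraries were below both normoxic ones, and the log2 change was -0.78 (SE 0.22, adjusted p = 0.00477) at 1% O2 and -0.98 (SE 0.22, adjusted p = 0.000315) at <0.1% O2. At 1% O2 the change was -0.50 without the second 1% O2 library and -0.61 with coverage scaling, and neither was called. The summits of this broad peak were spread over 618 bp between libraries, so the heights compared are not all from 1 point. The peak at +4.4 kb, also in an intron and at the start site of Gm41361, had pileups of 19 and 27, 50 and 49, and 32 and 33, and was higher at 1% O2 alone, by 0.57 (SE 0.23, adjusted p = 0.0443). That call was lost without any 1 of 5 of the libraries, with values of 0.49 to 0.64, and with the GC trend removed (0.55, adjusted p = 0.0679).

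Among the Pdgfb regions that differed by presence, the one at -23.0 kb was absent at 21% O2, with 21 and 27 at 1% O2, then 30 and 27 at <0.1% O2. The region at -42.1 kb was listed at 1% O2 alone, with 40 and 31, and that at +68.6 kb in both 1% O2 libraries at 47 and 50 and in 1 <0.1% O2 library at 38. The other 6 distal regions had pileups of 15 to 80 and gave no call and no gain. They include the peaks at -11.4 kb and +53.3 kb, with log2 changes at <0.1% O2 of 0.21 and 0.35 (adjusted p = 0.383 and 0.116).

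Adm encodes adrenomedullin, a peptide that dilates vessels and acts on endothelial cells. The gene spans chr7:110627661-110629820 on the plus strand and had no peak within 2000 bp of its start site in any library. Its nearest peak, at +2.8 kb and just past its end in an intron of Gm28863, had pileups of 62 and 74 at 21% O2, 132 and 112 at 1% O2, then 206 and 131 at <0.1% O2. Relative heights were 0.971 ± 0.0646, 1.18 ± 0.0561 and 1.84 ± 0.342 (SD, n = 2) and did not overlap, though the <0.1% O2 libraries were far apart. The peak was higher at <0.1% O2 by a log2 change of 0.91 (SE 0.14, adjusted p = 7.69e-07) against 21% O2 and 0.63 (SE 0.14, adjusted p = 0.000882) against 1% O2. The change at 1% O2 was 0.29 (SE 0.14, adjusted p = 0.106). Its local background rose alongside, from 6.22 and 7.15 at 21% O2 to 17.4 and 13.5 at <0.1% O2, and by fold the log2 change at <0.1% O2 was 0.10 (adjusted p = 0.620).

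The sites farther downstream of Adm also rose. The peak at +17.9 kb had pileups of 34 and 35, 59 and 66, and 87 and 75, and at <0.1% O2 it was higher than at 21% O2 by 0.86 (SE 0.19, adjusted p = 0.000181) and than at 1% O2 by 0.56 (SE 0.19, adjusted p = 0.0230). With the GC trend removed the step between the hypoxic levels was 0.42 (adjusted p = 0.118) and not called. Its fold rank went from 57.4 ± 13.6 to 84.5 ± 8.70 (SD, n = 2). The peak at +10.8 kb, at the start site of Gm28863, was low in normoxia, with 14 and 21, and had 42 and 50 at 1% O2, then 58 and 36 at <0.1% O2. Both hypoxic levels were higher, by 0.86 (SE 0.23, adjusted p = 0.00307) and 1.05 (SE 0.23, adjusted p = 0.000250). Without the second 1% O2 library the rise at 1% O2 was 0.68 and not called. The region at +23.6 kb had no peak at 21% O2, 28 and 19 at 1% O2, then 40 and 38 at <0.1% O2.

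Upstream of Adm the direction was the other one. The promoter of Sbf2 at -13.3 kb had pileups of 129 and 196, 188 and 172, and 162 and 132, and in relative height it was lower at 1% O2 by -0.38 (SE 0.12, adjusted p = 0.00836) and at <0.1% O2 by -0.49 (SE 0.12, adjusted p = 0.000569) on the log2 scale. The call at 1% O2 was lost without the second 21% O2 library (-0.26), and without the first or second 1% O2 library (-0.36 and -0.37). With the GC trend removed the values were -0.32 (adjusted p = 0.0508) at 1% O2 and -0.12 (adjusted p = 0.474) at <0.1% O2, and neither was called. Adm thus had 3 tested peaks downstream called higher at <0.1% O2 and 1 upstream called lower.

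Edn1 encodes endothelin-1, a peptide that constricts vessels, and lies at chr13:42301476-42307990 on the plus strand. Like Adm it had no peak at its own start site. The strongest peak of its window, at +27.3 kb and between genes, had pileups of 74 and 109 at 21% O2, 130 and 132 at 1% O2, then 192 and 161 at <0.1% O2. Relative heights at 21% O2 and 1% O2 overlapped (1.29 ± 0.106 and 1.28 ± 0.101, SD, n = 2) and those at <0.1% O2 stood above both (1.95 ± 0.0170). The log2 change was -0.01 (SE 0.13, adjusted p = 0.945) at 1% O2 and 0.60 (SE 0.13, adjusted p = 0.000136) at <0.1% O2, and the step between the hypoxic levels was 0.62 (SE 0.13, adjusted p = 0.000371). With coverage scaling the change at <0.1% O2 was 0.44 and not called.

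The other Edn1 peaks gave no call against 21% O2. The peak at +9.4 kb had pileups of 56 and 58, 63 and 65, and 85 and 76, and was higher at <0.1% O2 than at 1% O2 by 0.52 (SE 0.17, adjusted p = 0.0225), which was 0.13 (adjusted p = 0.643) with the GC trend removed. Against 21% O2 its log2 change was -0.39 (adjusted p = 0.0685) at 1% O2 and 0.13 (adjusted p = 0.562) at <0.1% O2. A peak at +5.6 kb in an untranslated region of the gene, at the start site of Gm47118, had a log2 change of 0.17 (adjusted p = 0.531) at <0.1% O2. The region at +50.4 kb had pileups of 17 to 23 in 5 libraries and was missing from the first 1% O2 library. No region of Edn1 was gained or lost.

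Angptl4, at chr17:33773750-33781830 on the minus strand, had the only promoter peak of a member that was called higher. It lies at -1.8 kb, in an exon of 4931413I07Rik, is also a promoter peak of that gene, and counts as one of Angptl4 under the 2000 bp window but not under 500 bp. Its pileups were 130 and 189 at 21% O2, 252 and 218 at 1% O2, then 398 and 321 at <0.1% O2. In relative height the 21% O2 and 1% O2 libraries overlapped (2.25 ± 0.164 and 2.28 ± 0.0770, SD, n = 2), and both <0.1% O2 libraries were above them (3.97 ± 0.0746). The log2 change was 0.02 (SE 0.10, adjusted p = 0.891) at 1% O2 and 0.82 (SE 0.10, adjusted p = 9.96e-09) at <0.1% O2, and between the hypoxic levels it was 0.80 (SE 0.10, adjusted p = 1.83e-07). The local background went from 10.9 and 12.6 to 26.5 and 22.6, and by fold the change was 0.11 (adjusted p = 0.465). The fold rank (mean ± SD, n = 2) was 77.0 ± 8.82 at 21% O2, 69.6 ± 3.00 at 1% O2 and 84.3 ± 1.17 at <0.1% O2.

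A further Angptl4 region, at -7.0 kb, was listed only at <0.1% O2, with pileups of 49 and 38 and no peak in the other 4 libraries. A region at +43.7 kb was absent at 21% O2 and had 20 and 21 at 1% O2 and 16 in 1 <0.1% O2 library. Of the 3 promoters of neighbours, that of Rab11b at +21.4 kb was the highest peak of all 22, with pileups of 234 to 431, and had a log2 change at <0.1% O2 of 0.16 (adjusted p = 0.176). The peak of Kank3 at -28.6 kb had pileups of 39 and 78 at 21% O2, 117 and 94 at 1% O2, then 109 and 81 at <0.1% O2. It was higher at <0.1% O2 by 0.40 (SE 0.17, adjusted p = 0.0432), which was 0.06 without the first 21% O2 library. The call was also lost without the first 1% O2 library (0.40, adjusted p = 0.0522) and without the first or second <0.1% O2 library (0.32 and 0.48), and with the GC trend removed (0.36, adjusted p = 0.0931). The peak shared by Ndufa7 and Rps28 at -42.8 kb had pileups of 49 and 78 at 21% O2, 85 and 78 at 1% O2, then 58 and 57 at <0.1% O2. It was lower at <0.1% O2 by -0.47 (SE 0.17, adjusted p = 0.0207), and the call was lost without the second 21% O2 library (-0.33) or the first <0.1% O2 library (-0.35).

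The promoter peaks most like that of Angptl4 over the 6 libraries, among 34 promoter peaks of the other members and of related genes, were those of Angpt2, Calcrl and Angptl1. Their root mean square distances were 0.17, 0.21 and 0.29 on the log2 scale, and that of Vegfa, the next, was 0.30. These are distances between profiles of centred log2 height and carry no test.

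Igfbp3, at chr11:7206086-7213923 on the minus strand, had no promoter peak and 1 peak in all libraries, at -24.0 kb and between genes. Its pileups were 56 and 73 at 21% O2, 75 and 82 at 1% O2, then 109 and 100 at <0.1% O2. In relative height the 1% O2 libraries were below both normoxic ones and the <0.1% O2 libraries above them. The values were 0.915 ± 0.00391 at 21% O2, 0.766 ± 0.101 at 1% O2 and 1.16 ± 0.0838 at <0.1% O2 (SD, n = 2). The log2 change was -0.26 (SE 0.16, adjusted p = 0.186) at 1% O2 and 0.34 (SE 0.16, adjusted p = 0.0678) at <0.1% O2, neither of which passed. The difference between the hypoxic levels was 0.60 (SE 0.16, adjusted p = 0.00359), and it was not called without the first 1% O2 or the second <0.1% O2 library, or with the GC trend removed (0.40, adjusted p = 0.0630). A second region, in an intron of the gene, had a peak in the first 1% O2 library alone, at 26.

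Lox, at chr18:52516067-52529867 on the minus strand, was the one gene with no tested peak. No library had a peak within 2000 bp of its start sites. The region at -5.7 kb was absent at 21% O2, had a pileup of 14 in 1 library at 1% O2, then 24 and 16 at <0.1% O2. That at -29.2 kb was listed in 4 libraries, at 14 in 1 normoxic library, 36 in 1 library at 1% O2, then 29 and 29 at <0.1% O2. The others lie at start sites of neighbours, of Gm27026, seen in 1 library at 16, and of Srfbp1, with pileups of 139 and 185, 193 and 161, and 111 and 99. The Srfbp1 region reaches 45 bp into the 50 kb window, and its consensus peak lies outside it. The first region beyond a window, 494 bp past that of Edn1, had pileups of 83 and 113, 137 and 124, and 152 and 147.

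**Figure D3:**
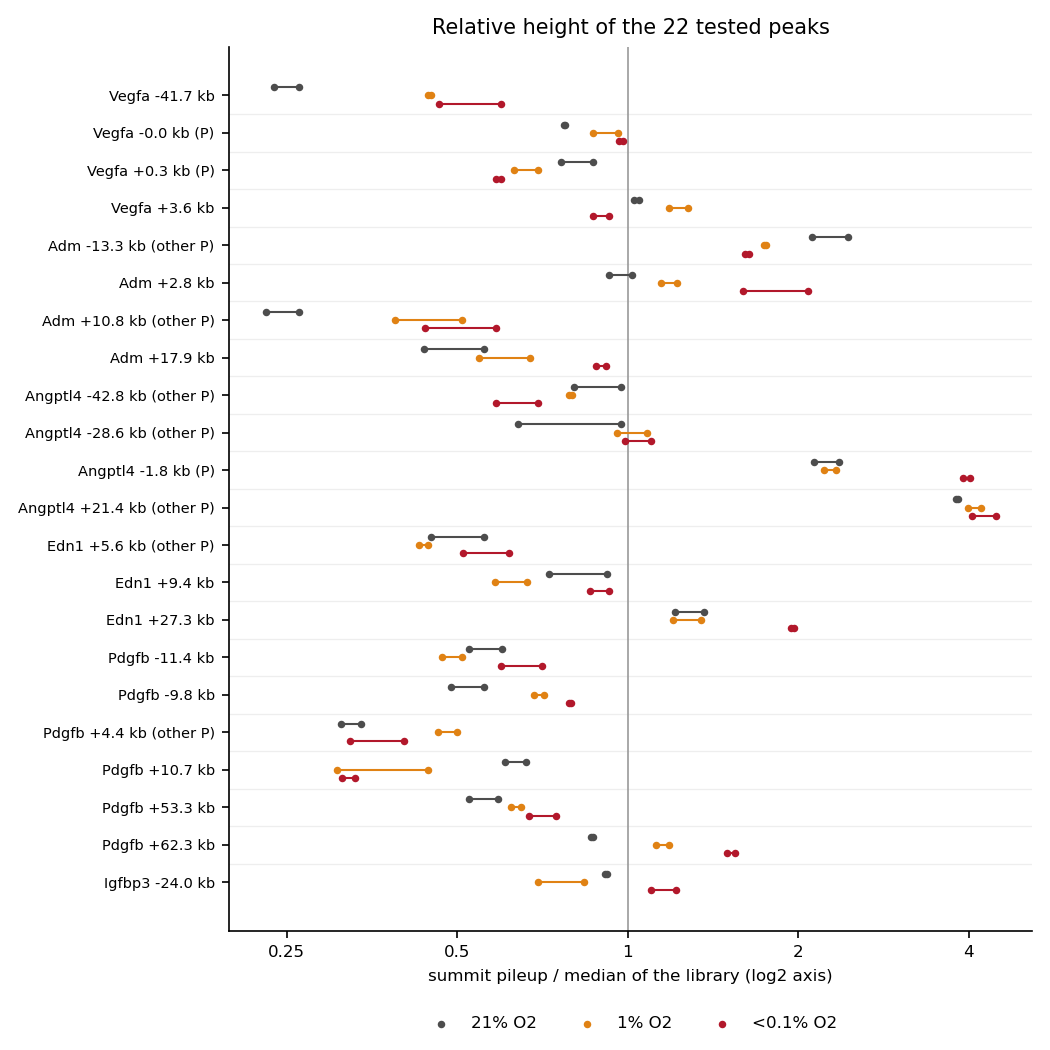
Relative height (summit pileup over the median of the library, log2 axis) of the 22 tested peaks, with 1 point per library and a line joining the 2 libraries of a condition. The Angptl4 -1.8 kb and Edn1 +27.3 kb peaks separate only at <0.1% O2 (3.97 and 1.95), while Vegfa -41.7 kb and Adm +10.8 kb are already apart from 21% O2 at 1% O2.

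Among the 22 peaks, the change at the 2 hypoxic levels therefore came in several forms. The peaks Vegfa -41.7 kb, Adm +10.8 kb and Pdgfb +62.3 kb were called higher at both levels, and Pdgfb +10.7 kb and the Sbf2 promoter lower at both. The peaks Adm +2.8 kb, Adm +17.9 kb, Angptl4 -1.8 kb and Edn1 +27.3 kb were called higher at <0.1% O2 against each of the other conditions. They were not called at 1% O2 against 21% O2, and Pdgfb +62.3 kb was higher in all 3 comparisons. These forms hold for pileups under the median scaling. With coverage scaling none of these steps between the hypoxic levels was called, and Edn1 +27.3 kb also lost its call against 21% O2. The Sbf2 promoter and Pdgfb +10.7 kb then lost theirs at 1% O2. With the GC trend removed both calls of the Sbf2 promoter were lost, as was the step of Adm +17.9 kb. By fold none of the calls was kept. Losses when a library was left out are given above. Both hypoxic comparisons use the same normoxic libraries.

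The percentile rank of fold enrichment gave more changes than the test of heights at 1% O2 and fewer at <0.1% O2. It asks where a peak stands among the tested peaks of its own library, and a peak counts here when both libraries of one condition lie beyond both of the other and the mean moves by at least 10 points. At 1% O2, 6 of the 22 peaks were higher and 4 lower, beside 16.6% and 18.5% of all tested peaks, and at <0.1% O2 5 were higher and 2 lower, beside 19.3% and 19.9%. The 5 were Vegfa -41.7 kb, Adm +10.8 kb and +17.9 kb, and Pdgfb +53.3 kb and +62.3 kb. The mean rank of the Sbf2 promoter fell by 28.9 points at <0.1% O2, from 73.1 ± 5.45 to 44.3 ± 2.69 (SD, n = 2). With 2 libraries against 2 an exact permutation test of ranks cannot go below 0.333, so no p-value is given for them.

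**Figure D4:**
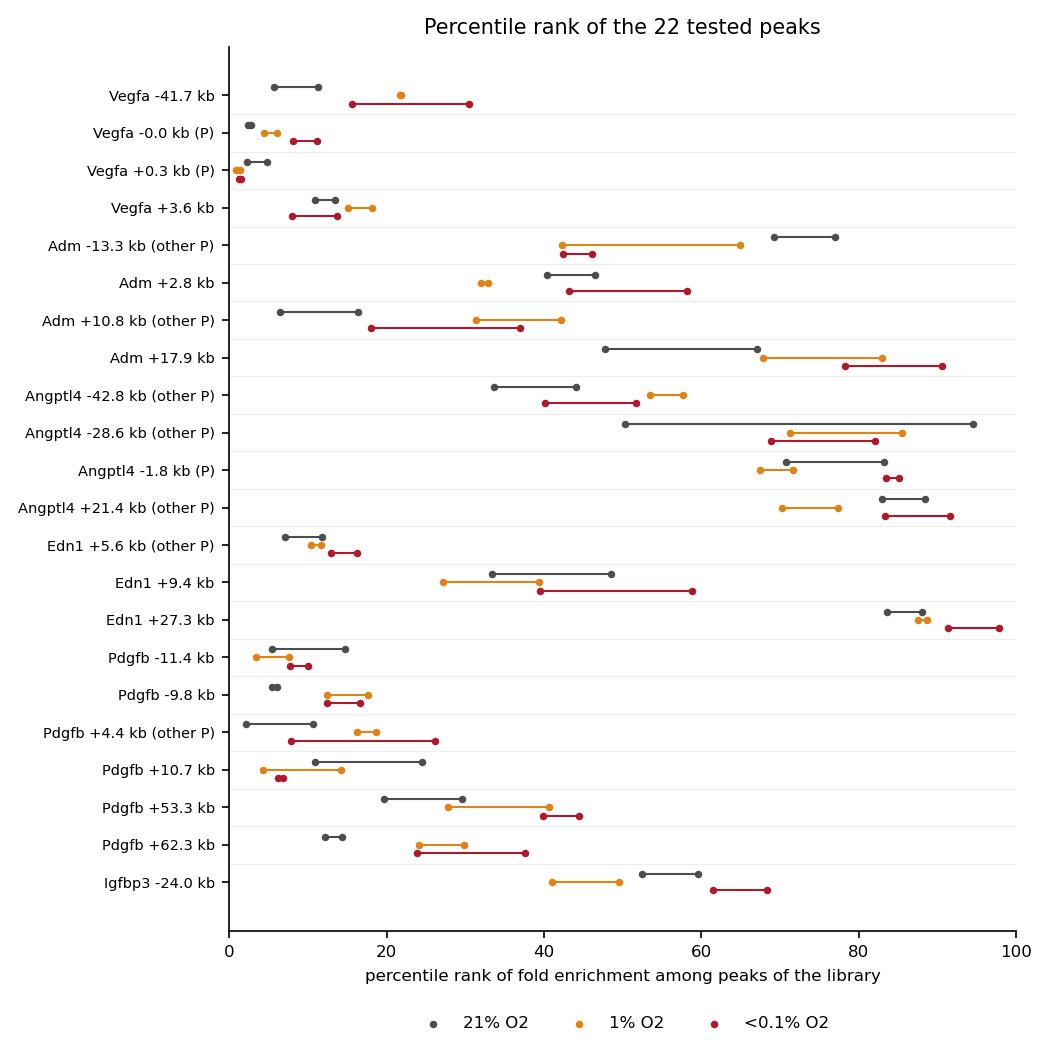
Percentile rank of the deposited fold enrichment (x axis, 0 to 100) of the 22 tested peaks among all 28432 tested peaks of each library, with 1 point per library and a line joining the 2 libraries of a condition. The Vegfa and most Pdgfb peaks sit under 40 in every library, and the Edn1 +27.3 kb, Angptl4 -1.8 kb and Rab11b peaks (Angptl4 +21.4 kb) sit between 67.5 and 97.8.

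Receptors, processing enzymes, relatives and other secreted angiogenic factors gave a mixed picture at their promoters. Of 56 such genes in the annotation, 20 had no promoter consensus peak, 3 had one that was missing from some library and 33 were tested. At <0.1% O2, 6 were higher and 12 lower, and 15 did not pass, to be read beside the 13.9% and 38.5% of all promoter peaks. At 1% O2, 6 were higher and 8 lower, beside 13% and 22.1% of all promoter peaks. The largest changes at <0.1% O2 were falls of Pdgfa, the partner chain of Pdgfb (-1.25, SE 0.17, adjusted p = 8.18e-08), of the growth factor Fgf2 (-0.99, SE 0.15, adjusted p = 5.34e-07), of the matricellular gene Ccn1 (-0.91, SE 0.12, adjusted p = 1.85e-08), and of Flt1 and Nrp2, receptors for VEGF (-0.90 and -0.86, SE 0.18 and 0.12, adjusted p = 5.08e-05 and 8.25e-08). Igfbp6, a relative of Igfbp3, was the one rise among these 6 (0.98, SE 0.14, adjusted p = 1.11e-07).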

How the data were processed

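ATACseq libraries of GL261 cells at 21%, 1% and <0.1% O2 were used, 2 per condition, grouped by the labels. The authors trimmed reads with Trimmomatic, aligned them to mm10 with Bowtie2 2.2.5, removed duplicates with Picard and ran MACS2 2.1.1.2 on each library separately, leaving out blacklisted regions. For each peak the deposited lists give the fold over local background (a ratio), the -log10 p-value and the -log10 q-value as the authors' caller wrote them. Replicates were not pooled. Read counts were not used here, so the DESeq2 test of the study was not repeated.

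The summit pileup was recovered from the fold and p-value of each peak (100% of peaks in every library), and genome coverage was taken from the smallest background in a list. Consensus peaks joined stretches over 200 bp shared by both replicates. Log2 pileups, centred on the median of each library over the 28432 peaks present in all 6, were tested with limma 3.58.1 (eBayes with trend and robust, R 4.3.3) in 1 fit, with Benjamini-Hochberg adjustment over all tested peaks and a call at an adjusted p under 0.05. The fit was tested on simulated data. Start sites came from GENCODE M21 and sequence from GRCm38.p6, an assembly of the same build as mm10. The genes, the related genes, the motifs and the tests were chosen with earlier results of these data known. Per-library values are given for the strongest promoter peak of each gene and for every distal peak that was called or was present in both libraries of one condition and absent from both of another. Of the related genes, up to 6 with the largest called change at <0.1% O2 are named. Other peaks are given by counts and ranges, except promoter peaks of neighbours and single regions named after their values were seen. Alternatives covered scaling, the value tested, GC content, a replicate block, a pileup minimum, the joining of peaks, the rank rule, list length and threshold, window sizes and the omission of each library. The scripts ran in Python 3.11.15 with pandas 2.3.3, pysam 0.24.0, scipy 1.17.1, numpy 2.4.6 and statsmodels 0.14.6.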

Additional observations from a re-analysis of the deposited data

How the results depend on the processing

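The log2 changes of the 18 peaks given per library among the 22 tested, in 3 comparisons, gave 702 values under the alternatives, of which 566 kept their direction and their side of the threshold, 91 lost a call, 5 gained one, 37 changed sign without a call and 3 reversed. Reversed were the +0.3 kb peak of Vegfa at <0.1% O2 with the GC trend removed, at 0.024 with or without the replicate block, and the -42.8 kb peak near Angptl4 when fold enrichment was tested, at 0.11. The cause was not tested. With fold enrichment tested, the peaks of these genes that limma called higher and lower were 0 and 0 in each comparison (6, 9 and 4 passed at an unadjusted p under 0.05), while all peaks called were 1836 at 1% O2, 3748 at <0.1% O2 and 162 between the hypoxic levels. With coverage scaling 0 were lower at 1% O2, and between the hypoxic levels 0 were higher (1 at an unadjusted p under 0.05) and 3 lower. All peaks called were then 5175 at 1% O2 and 8783 at <0.1% O2. With the GC trend removed, with or without the replicate block, 1 was lower at 1% O2, 2 were lower at <0.1% O2, and 4 were higher and 0 lower between the hypoxic levels, where 2878 of all peaks were called without and 3007 with the block. The rank rule gave 4 lower at 1% O2, 5 higher and 2 lower at <0.1% O2, and 0 lower between the hypoxic levels. With the union of all peaks, 2 were lower between the hypoxic levels.

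Leaving out single libraries, the number higher at 1% O2 ranged from 2 to 4 and lower from 0 to 2, the number lower at <0.1% O2 from 2 to 4, and between the hypoxic levels the number higher from 3 to 8 and lower from 0 to 1, with 3082 to 8361 of all peaks called. At 1% O2 the 2 higher came without either 1% O2 library and the 0 lower without the second, those between the hypoxic levels without any 1 of their 4 libraries (except 6 higher without the second 1% O2 library), and the 2 lower at <0.1% O2 without its first library. Regions lost ranged from 0 to 1 at 1% O2 and from 0 to 3 at <0.1% O2, the 3 being without the first 21% O2 library. With lists of equal length the regions gained were 0 at 1% O2 and 3 at <0.1% O2, and 1 and 2 counted as lost. With a -log10 q of at least 10, 5 were gained at 1% O2, and within 20 kb of the genes 2 at 1% O2 and 3 at <0.1% O2. The labels do not say whether the replicate numbers pair the libraries. The deviations of same-numbered libraries correlated at -0.051 to 0.008, which shows no shared deviation but not how the libraries were made. The replicate block alone changed no call of the peaks reported (9 higher and 4 lower at <0.1% O2 in both fits). Leaving out a library leaves 1 in its condition, which is then assumed to vary like the others. Depth limits what can be said of presence, since the normoxic libraries were the shallowest.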
